A study of Mus musculus with 2 samples.

Results

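The coding sequences (CDS) described here are those of nuclear protein-coding genes that gave at least 100 reads of piRNA size, 24 to 32 nt, in the sense direction, summed over the 2 deposited tables of mouse testis small RNA. A read counted when it had 1 place among the annotated transcripts, its start lay inside the CDS, and no annotated untranslated region (UTR) covered that start. There were 1603 such coding sequences among 22015 nuclear protein-coding genes with a CDS in GENCODE M21, and 13363 genes had at least 1 such read. Because the read counts chose the members, their totals are a description. The minimum fell within a continuous range: 66 genes had 100 to 104 reads and 79 had 95 to 99. B230219D22Rik (49 KO-named and 51 het-named reads, by the table names explained next) and BC024978 (50 and 50) lay just inside it. 1700102P08Rik (58 and 41) and Fam168a (42 and 57) lay just outside.

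The labels describe testes of C57BL/6 mice at 23 dpp with the genotypes Stambp-ps1+/- and Stambp-ps1-/-, 1 sample of each. Stambp-ps1 is a pseudogene copy of the deubiquitinase gene Stambp, and by these labels neither sample is wild type. How many animals were used and how the allele was made are not given in the labels. Both tables are recorded under the Stambp-ps1-/- sample, although 1 has KO and the other het in its name. They are therefore called KO-named and het-named and were assigned to no genotype. There were 54384974 KO-named and 62773871 het-named reads. Each table is 1 library, so the tables could not be tested against each other. Intervals are exact 95% Clopper-Pearson intervals, and they cover counting error only, since reads copied by PCR are not independent molecules.

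PIWI-interacting RNAs (piRNAs) are small RNAs of the germ line that PIWI proteins carry and that guide them to matching RNAs. Most begin with U, a preference of the PIWI pocket that holds the 5' end and of the nuclease that makes that end, and their length follows the protein: in mouse, PIWIL2 (MILI) carries shorter piRNAs than PIWIL1 (MIWI). In the meiotic mouse testis most piRNAs come from long noncoding transcripts, and a smaller class comes from messenger RNAs, best known from their 3' UTRs. A second kind, made by the ping-pong cycle in which opposite strands cut each other, carries A at base 10.

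Frequent reads of up to 30 nt from leading coding sequences are shown because they carry the features counted afterwards: the starting base, the length, and the sharpness of the 5' end compared with the 3' end. They are written 5' to 3' in DNA letters, so T stands for U, with the starting base in capitals. Coordinates are GRCm38. The leading start of Nemp1, described below, gave mostly reads of 31 nt, which are not printed. In Nemp1 a read of 28 nt (chr10:127694470-127694497, plus strand, 3561 reads) and one of 30 nt (chr10:127694470-127694499, 2289 reads) shared a 5' end and differed at the 3' end. Another frequent read began further along (chr10:127694582-127694610, 2195 reads). In 1700006A11Rik the main read began with G (chr3:124421382-124421407, minus strand, 3135 reads), and a read starting with U overlapped it (chr3:124421387-124421414, 1746 reads).
Nemp1 28 nt: Tacaaatatgggcccctggaaaatgaac
Nemp1 30 nt: Tacaaatatgggcccctggaaaatgaacga
Nemp1 29 nt: Ttgctctcatcgtcattgcactgtgcact
1700006A11Rik 26 nt: Gaaaacttcgtggatgttctcaacct
1700006A11Rik 28 nt: Tgagtcagaaaacttcgtggatgttctc

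The next set shows the ways in which reads of 1 coding sequence shared an end. Armc1 reads shared the 5' end and had several 3' ends (chr3:19157612-19157637, minus strand, 452 reads, and chr3:19157608-19157637, 423 reads). Sec61a1 reads had the opposite arrangement, with several 5' ends at neighbouring positions and a common 3' end (chr6:88515353-88515377, minus strand, 181 reads; chr6:88515353-88515380, 100 reads; chr6:88515353-88515379, 77 reads). In Tbc1d20 (chr2:152311722-152311748, plus strand, 840 reads) and D1Pas1 (chr1:186968585-186968611, plus strand, 539 reads) nearly all reads of the main start had the same length. The Tbc1d7 read crossed an exon border, so its ends span an intron (chr13:43168833-43169805, minus strand, 137 reads). Zbtb3 (chr19:8803488-8803513, plus strand, 435 reads), Hist1h2ba (chr13:23933926-23933954, minus strand, 376 reads) and Rpl30 (chr15:34442685-34442711, minus strand, 286 reads) stand for leading genes of other kinds.
Armc1 26 nt: Tactatgaatgaagaacctgatgctc
Armc1 30 nt: Tactatgaatgaagaacctgatgctctatc
Sec61a1 25 nt: Tactggatgcgagtgattctggcct
Sec61a1 28 nt: Ttctactggatgcgagtgattctggcct
Sec61a1 27 nt: Tctactggatgcgagtgattctggcct
Tbc1d20 27 nt: Tactttcaaagactttgagctggcatc
D1Pas1 27 nt: Tcttgagtcagatctatacggatggtc
Tbc1d7 26 nt: Ttggacatcgagaagctttgcacatt
Zbtb3 26 nt: Tggcatctgttgaaccgtcagcccgc
Hist1h2ba 29 nt: Tgacagacatcttcgagcgcatcgcgagc
Rpl30 27 nt: Tacaagcagactctgaagatgatcaga

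The reads were spread over many genes with a heavy head. The 1603 members held 571844 reads, out of 802726 over every CDS, and 212 of them held 50% of the members' reads. Nemp1 alone held 7.31%, and the 20 leading members 19.5%. With each read counted once where genes overlap, the members held 567079 reads, or 0.629% of all 24 to 32 nt reads of the tables. Of the members, 89 shared a counted stretch with an exon of another gene on the same strand, so their reads could belong to either gene. Gm45799 and Timm10b, for example, have the same 228 reads.

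Nemp1 (ENSMUSG00000040195.11, chr10:127666901-127701049, plus strand), which encodes an inner nuclear membrane protein, led with 21663 KO-named and 20136 het-named reads. In RPM, the reads for each 1000000 that a table holds, these were 398 (393 to 404) and 321 (316 to 325). Its reads began with U in 92.6%, and 62.5% were 29 to 31 nt long, against a median member's 26.7%. When the CDS was divided into 10 equal parts, part 7 held 65.2% of those on the reference transcript. The most frequent start, CDS position 917, gave 4680 and 4280 reads, mostly of 31 nt. Its 3' UTR was also rich, with 184018 reads, of which 97.4% began with U. The density was 35580 reads per kb in the 3' UTR and 32277 per kb in the counted CDS.

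1700006A11Rik (ENSMUSG00000027973.11, chr3:124400989-124426040, minus strand) came next with 4857 and 4657 reads, or 89.3 and 74.2 RPM. It was an exception among the leaders, because only 44.7% (43.7 to 45.7) of its reads began with U. The read with a starting G at CDS position 46 printed above belongs to a start that gave 2263 and 2120 reads, 46.1% of the total. Only 293 nt of this CDS were counted, the rest being UTR in some transcript, and 91.4% of its 19394 reads in the 3' UTR began with U. The low share was thus that of a short stretch of the gene, and its 3' UTR did not have it.

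Next came Zbtb3, Tktl2 and Scrib. Zbtb3, a zinc finger gene with a BTB domain, had 3642 and 3946 reads, 67.0 and 62.9 RPM, and 93.6% began with U. Tktl2, a transketolase-like gene with an intronless CDS, had 2925 and 2741 reads (53.8 and 43.7 RPM) and a first-U share of 87.3%. Scrib, a scaffold of cell polarity, had 2162 and 2259 reads with 82.9% first U. The rest of the leaders had varied roles. Maz, a zinc finger transcription factor, had 2023 and 2017 reads. Ubap1, a subunit of the ESCRT sorting machinery, had 1750 and 1856 reads. Arfgap2, which acts on the COPI coat, had 1598 and 1797 reads.

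Several leaders work in gene expression or in the germ line. Ppp1r15b, a regulatory subunit of a phosphatase that keeps translation initiation active, had 1683 and 1591 reads, 91.3% with first U. Hist1h2ba, the testis form of histone H2B, had 1624 and 1395 reads, 88.8% with first U. D1Pas1, a testis DEAD-box helicase related to Ddx3x, had 1227 and 1050 reads, 92.2% with first U. Scaf4, which binds RNA polymerase II, had 1173 and 1234 reads. Snrnp35, a protein of the minor spliceosome, had 1078 and 1253. Sec61a1, the pore of the endoplasmic reticulum translocon, had 1063 and 1080.

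Length set some of the leaders apart. Wdfy3, an autophagy adaptor, had 1290 and 1575 reads, 55.0% of them 29 to 31 nt. Qrich2, needed for the sperm flagellum, had 1357 and 1552 reads, 57.8% of that length. Klhl11, a substrate adaptor of a ubiquitin ligase, had 1289 and 1235 reads and the highest such share of the leaders, 73.5%. 4933414I15Rik had 1192 and 1151 reads with 59.1%. At the other end were D1Pas1 with 14.6%, Sec61a1 with 17.2% and Smcr8, an autophagy regulator with 1502 and 1553 reads, with 21.1%. Among the 20 leaders the share of 29 to 31 nt thus ran from 14.6% to 73.5%.

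A U at the start was the shared feature of the members. Pooled over members, 79.7% of reads began with U (79.6 to 79.8), 80.4% of KO-named and 79.0% of het-named ones. Leaving out Nemp1 gave 78.7%. U made up a median of only 21.6% of the members' CDS bases (range 8.22% to 34.0% over 1594 members with a complete transcript). In 1590 of those 1594 the first-U share was above the U content of the same CDS, and in 1588 so was the lower bound of its interval. The median first-U share of a member was 78.2%, with 90% of members between 50.7% and 91.9%. A share of 75% or more was reached by 969 of 1603 coding sequences, 60.4%, beside 87.9% of 1898 3' UTRs and 76.0% of 233 sets of lncRNA exons chosen by the same minimum. Pooled, 82.6% of reads in the 3' UTRs and 86.6% in the lncRNA exons began with U. The coding sequences were thus the lowest of the 3 classes by the pooled share and by the share of regions at 75% or more. The range holding 90% of regions reached lower in the lncRNA exons, to 14.7% against 50.7%. No test of the order was run. The U content of the 3' UTRs and lncRNA exons was not computed, and median reads also differed: 187 in coding sequences, 279 in 3' UTRs and 335 in lncRNA exons.

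**Figure D1:**
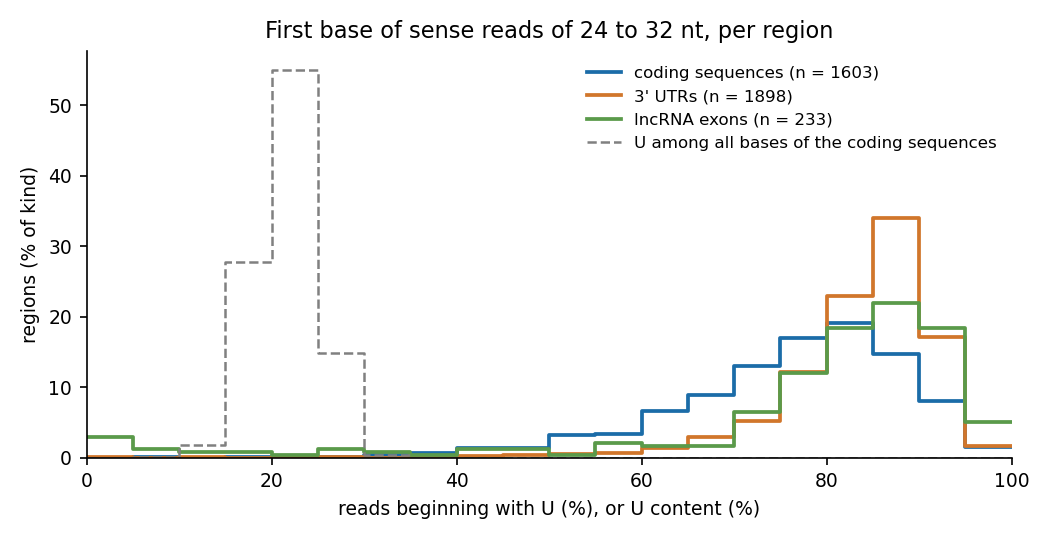
Share of sense reads of 24 to 32 nt that begin with U (x axis, percent) against the percent of regions (y axis) for 1603 coding sequences, 1898 3' UTRs and 233 sets of lncRNA exons with at least 100 reads. The dashed outline is the U content of the same coding sequences, centred near 21.6%, while their first-U shares centre on 78.2%.

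The first-U share rose with the length of the read. In the members it was 36.3% for reads of 18 nt and 25.8% for 19 nt, then 54.1% at 21 nt, 66.4% at 23 nt and 73.9% at 24 nt. It reached its highest value, 84.7%, at 30 nt and was 79.3% at 32 nt. The 42488 reads of 18 to 23 nt in the same coding sequences began with U in 51.2% (50.7 to 51.7). These shorter reads are outside the rule and lie between the CDS composition and the piRNA-size reads. They were fewer where the first-U share was high. Per 100 members' reads there were 13.6 at shares of 50% to 70%, 7.64 from 70% to 85% and 4.29 from 85% on. Below 50% there were 16.9, but Ipmk alone gave 1603 of those short reads, 5.61% of them with first U. The value below 50% thus leans on 1 gene. Members with more reads also began with U more often, with a median of 88.1% over ranks 1 to 20, 84.9% over 21 to 100, 81.5% over 101 to 500 and 76.0% over the remaining 1103.

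Some members stood far from the median. Of those with at least 300 reads, the highest were Tbc1d7, a subunit of the TSC complex, with 97.9%, Rad51d, a recombination protein, with 97.7%, Armc1 with 96.9%, the mitochondrial carrier Slc25a51 with 96.4% and 1700003E16Rik with 96.1%. The lowest were Fam13b with 21.7%, Ipmk, an inositol phosphate kinase, with 34.2%, the poly(A) binding protein Pabpc1 with 34.8%, 1700006A11Rik with 44.7% and the dynein heavy chain Dync1h1 with 46.7%. Below 50% lay 69 members and below 30% only 6. Among those 6, Msl2, a chromatin factor gene, had 149 and 129 reads and a share of 19.4%, with 69.8% of its reads at 1 start. Fam13b had 71.0% of its 384 and 419 reads at 1 start, with G. Dync1h1 was less peaked than both: its 132 and 185 reads lay on 274 starts, and the most frequent start held 1.3%.

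A at base 10 was not a general feature. The median member had A there in 28.3% of reads, pooled values were 27.7% of first-U and 29.98% of other reads, and the 69 members with a first-U share below 50% had a median of 28.8%. A share of 70% or more, a threshold chosen after the values were seen, was reached by 28 members (1.75%), and in 23 of them at least 40% of reads lay at 1 start, so that a few positions set the value. Stox1, a transcription factor gene, was different: 87.4% of its 431 and 509 sense reads had A at base 10 although its most frequent start held only 7.98%. Its sense reads began with U in 47.0%, and its CDS also held 55073 antisense reads, 88.5% of them with first U. Ccnq had A at base 10 in 73.1% of 345 and 336 reads, beside 1104 antisense reads, but 42.0% of its sense reads lay at 1 start. Of its 11 pairs of opposite start positions that overlapped by 1 to 20 nt, 0 overlapped by 10 nt. In Stox1 130 of 2038 such pairs did. Whether the ping-pong cycle made these reads was not tested.

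Around the start, U at base 1 was the largest departure from even use of the bases, when each distinct sequence counted once, and smaller ones were seen next to it. At base 1 the shares were U 67.3%, A 13.6%, C 11.6% and G 7.51%. At base 2 A had 31.8% and G 31.1%, and at base 5 A rose to 37.9% (43.6% when reads were counted). The base before the start was A in 31.7%, C in 30.3%, U in 22.1% and G in 15.9%. Thus G was the least frequent base both at the start and before it. The base after the 3' end was U in a median of 22.6% of a member's reads against a U content of 21.6%, and it exceeded the member's own content in 880 of 1593. It was U in 22.5% after reads of 26 to 28 nt and in 25.8% after reads of 29 to 31 nt.

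**Figure D2:**
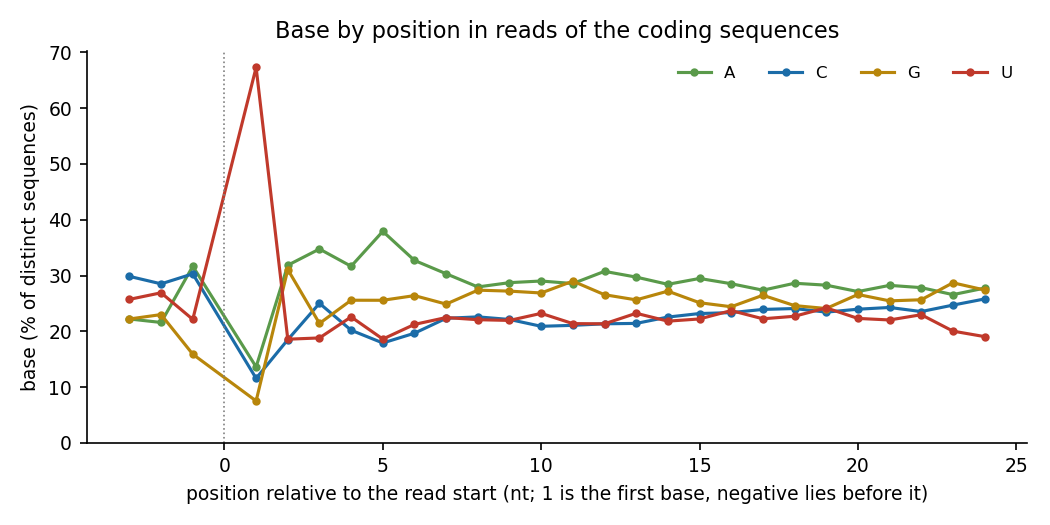
Percent of distinct sequences (y axis) with each base at positions from 3 nt before the start to base 24 of the read (x axis) in the members' coding sequences. U stands at 67.3% at base 1 and the other positions stay below 40%, with A at base 5 the highest of the bases after the start at 37.9%.

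Most members gave reads of 26 to 28 nt. Pooled, 11.8% of reads were 24 to 25 nt, 51.8% were 26 to 28 nt, 33.4% were 29 to 31 nt (33.3 to 33.6) and 3.02% were 32 nt. The most frequent length was 27 nt in 717 members, 26 nt in 375, 28 nt in 207, 30 nt in 136 and 29 nt in 104. Reads of 26 to 28 nt outnumbered those of 29 to 31 nt in 1383 of 1603 members. The median share of 29 to 31 nt was 26.7% in coding sequences, 32.02% in 3' UTRs and 45.6% in lncRNA exons. First-U reads held more of the long class (34.9%) than other reads (27.7%). Nemp1 moved the pooled share: without it 31.1% of reads were 29 to 31 nt.

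**Figure D3:**
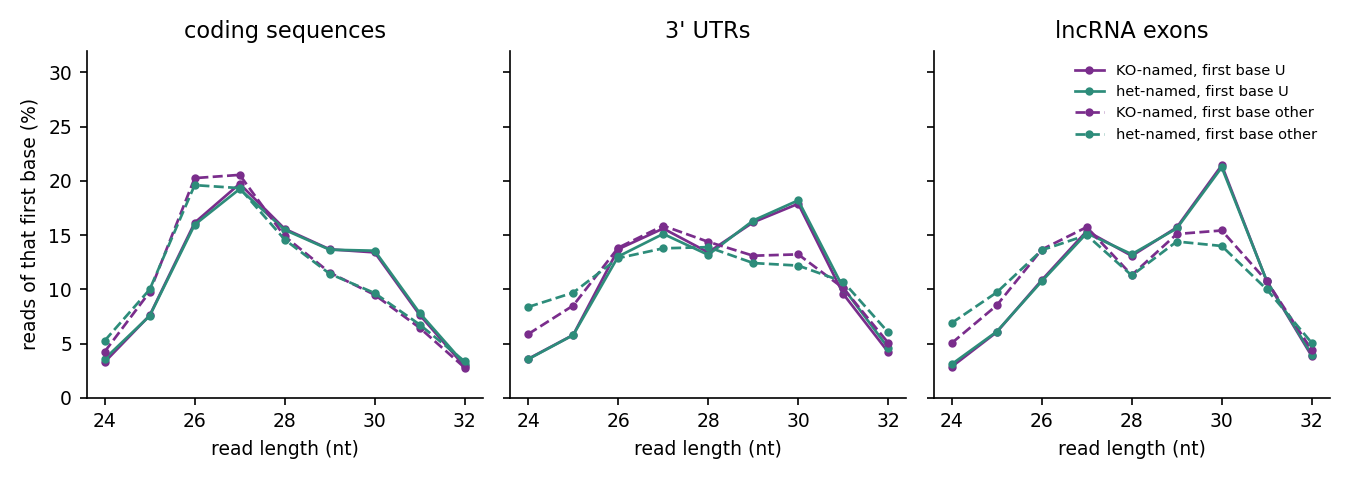
Share of 24 to 32 nt reads (y axis, percent) by length (x axis, nt) for coding sequences, 3' UTRs and lncRNA exons, with first-U reads as solid and other reads as dashed lines, KO-named in purple and het-named in teal. The coding sequences peak at 26 to 28 nt (51.8% of reads), and the lncRNA exons hold 46.7% at 29 to 31 nt.

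A minority of coding sequences gave mainly long reads. In 133 members at least 50% of reads were 29 to 31 nt. They held 102168 reads, and their median first-U share was 84.3%. Among members with at least 300 reads, the extremes were Ccnq (83.8%), Fam13b (77.2%), Eef1akmt2 (75.9%) and Klhl11 (73.5%). At the short end were Hist1h4f (3.27%), Tbc1d20 (5.0%), Gigyf2 (5.84%) and Fsd1 (6.72%). Ccnq is a cyclin, Hist1h4f a copy of histone H4, and Gigyf2 a repressor of translation. The length class and the first U were not tied to each other in these extremes: Fam13b had long reads with 21.7% first U, and Tbc1d20 short reads with 94.3%.

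Most members gave reads from many starts. The median coding sequence had 110 distinct sequences on 80 starts, which by the inverse Simpson index equal 23.4 starts used evenly, and 13.1% of its reads lay at the most frequent start. That share was under 10% in 586 members and under 5% in 119. In 67 members it was 50% or more. The median was 11.1% in 3' UTRs and 17.1% in lncRNA exons. The evenest members with at least 300 reads were all long genes: Dync1h1 (1.3%), the ubiquitin ligase Mycbp2 (2.3%), the spectrin Sptan1 (2.6%) and the chromatin regulator Asxl1 (3.0%). The least even were the ribosomal protein gene Rpl30 (87.9%), Armc1 (86.0%), the SNARE Bnip1 (85.9%) and Tbc1d20 (77.5%), a regulator of Rab GTPases.

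**Figure D4:**
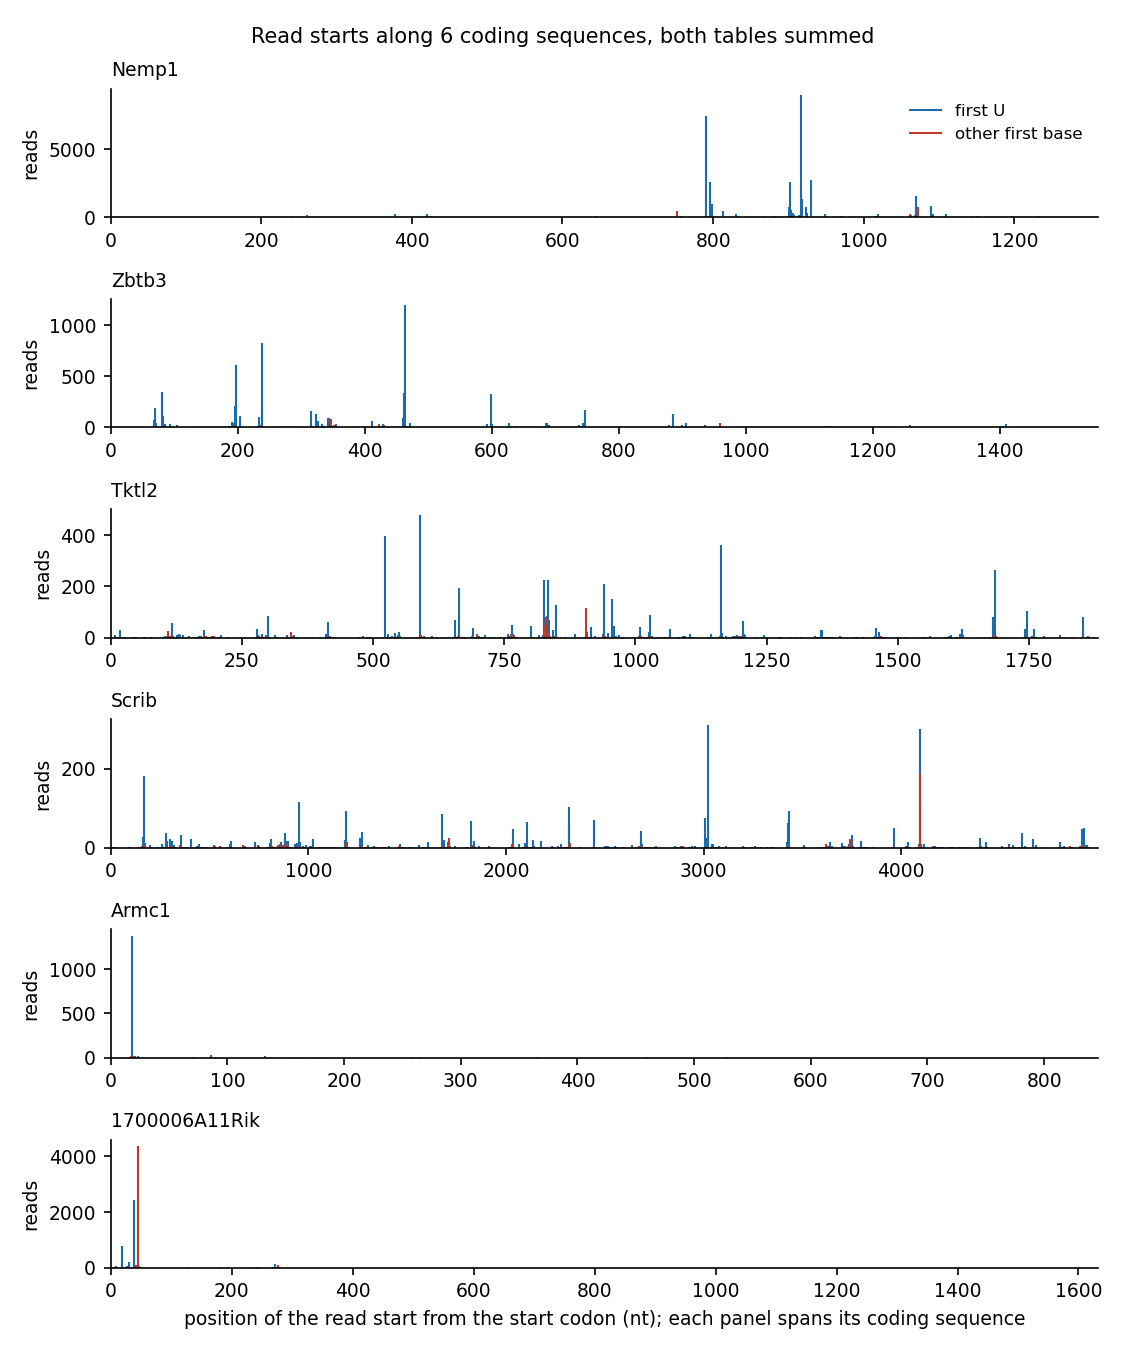
Reads per start (y axis, both tables summed) along the coding sequence from the start codon (x axis, nt) for Nemp1, Zbtb3, Tktl2, Scrib, Armc1 and 1700006A11Rik, with starts at U in blue and others in red. Scrib has its reads on 593 starts, the highest with 7.03%, while Armc1 has 86.0% at 1 start and the highest start of 1700006A11Rik is not a U.

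The leading start was often the same in the tables. The same position led in both tables in 1003 of 1603 members (62.6%) and in 324 of the 452 with at least 300 reads. Armc1 had 719 KO-named and 661 het-named reads at its start, CDS position 18, and Rpl30 had 305 and 209 at position 91. Of the 1593 most frequent starts on the reference transcript, 1457 (91.5%) were a U, above the 79.7% over reads. A median of 12.4% of the U positions of a CDS were a start of at least 1 read, against 2.07% of the other positions. Both values are limited by depth, since the median member had 187 reads on 80 starts. They are also shares of the whole CDS, including positions under a UTR of some transcript, where no start was counted. The highest value was 75% of U positions, in Aym1, and Nemp1 reached 67.2%. Of the 228484 distinct sequences, 42642 (18.7%) occurred in both tables, and these held 62.2% of the reads.

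The 5' ends were sharper than the 3' ends. The most frequent 3' end held a median of 9.84% of a member's reads, and it held less than the most frequent start in 1240 members and more in 280. Armc1 is an example of the usual form, since at its leading start only 32.8% of reads had the main length of 26 nt. In D1Pas1 and Tbc1d20 both ends were sharp: 96.2% and 98.5% of reads at the main start were 27 nt. Sec61a1 was of the rarer form shown by its sequences.

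Starts directly after a 3' end were not set apart from those at nearby distances. Pairs in which a start lay 1 nt after a 3' end made up a mean of 2.34% of pairs within 50 nt, against an average of 1.99% at the other distances, and 2.47% lay at 2 nt. Counting each pair of positions once gave 2.11% against an average of 1.998%. Pooled over reads, 4.56% of pairs lay at 1 nt and 5.53% at 8 nt, the highest. Without Nemp1 2.42% lay at 1 nt and 5.74% at 2 nt. In 578 of 1580 members the value at 1 nt exceeded the member's own mean.

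Over members as a whole, the reads were spread along the coding sequence, and they included spliced sequence. Of the 10 equal parts of the CDS, part 2 had the highest mean share of reads with 11.3% and part 7 the lowest with 9.15%. In each part, between 133 and 259 of 1593 members had no counted read. The parts divide the whole CDS, but starts under a UTR of any transcript were not counted. Some parts could therefore hold few or no counted reads, as in 1700006A11Rik with 293 counted nt in a CDS of 1632 nt. The part means share this limit. Reads that crossed an exon border were found in 1392 of 1464 members. These 1464 had at least 1 counted start position from which a read of 28 nt would cross a border. They made up a median of 12.3% of a member's reads, where 16.5% of positions would give a crossing read of 28 nt, and 78.6% of them began with U. In Tbc1d7 they were 91.5% of the reads. Zbtb3, Tktl2 and D1Pas1, each with a CDS in a single exon, had no such reads. Coding sequences of that kind were 125 of 1594 members (7.84%), beside 16.4% of 21809 genes and 6.97% of genes with any read. Codon positions differed little from composition except at position 3: 22.3%, 37.0% and 40.7% of first-U reads began at codon positions 1, 2 and 3, where 25.2%, 40.1% and 34.7% of the U bases lie.

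Antisense reads were few beside the sense reads, and most also began with U. They summed to 66167, or 11.6 per 100 sense reads, and 86.7% began with U. Stox1 alone accounted for 55073. Without it there were 11094, or 1.94 per 100 sense reads, of which 77.6% began with U (76.8 to 78.4). A few genes with unlike shares still weighed on that value. Reads with first U were 3019 of 3318 in Tbc1d1 and 1058 of 1104 in Ccnq. They were 1002 of 1955 in Hist1h2ba and 418 of 831 in Maz. No antisense read was found in 1134 members. Overlaps of 10 nt between opposite starts made up 6.69% of position pairs (458), against 3.70% to 5.52% for each other overlap from 1 to 20 nt.

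Many members had more reads per length in the CDS than in their own 3' UTR, as selection on CDS reads favours. Over 1399 members with a 3' UTR of at least 200 nt the medians were 116 and 53.4 reads per kb, and the 3' UTR was denser in 420. The CDS was at least 5-fold denser in 413 and the 3' UTR in 61. Setd2, a histone methyltransferase, had 427 reads per kb in the CDS and 12.2 in the 3' UTR, and Armc1 had 1896 and 11.8. Mrpl1, a mitochondrial ribosomal protein, had 1100 and 4.52. The opposite held for Wdfy3 (277 and 3314), the nuclear receptor Nr2c2 (894 and 7587), Ddx19b (936 and 10002) and Asb1 (3183 and 16150). In the 618 members with at least 100 reads in the 3' UTR, the UTR reads began with U more often than the CDS reads of the same gene in 445 (medians 85.9% and 79.6%) and held more of 29 to 31 nt in 371 (33.6% and 28.8%).

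Gene groups differed in how many members they gave, beside 7.28% of all genes. Of 76 ribosomal protein genes 17 were members (22.4%), with 7222 reads and an uneven pattern: a median of 43.8% of reads at 1 start. Reads of these genes that also match another annotated place, such as a pseudogene copy, were not counted. Both the member count and the pattern are therefore those of the positions with 1 place, and 19 of the 76 genes had no counted read. Rps15 had 665 and 614 reads, Rps3 376 and 367 and Rpl30 342 and 243. Of 17 translation factors 7 were members, and only 50.8% of their 1472 reads began with U. Pabpc1 had 157 and 237 reads, and the elongation factor Eef2 had 142 and 179 reads with 50.8%. The initiation factors Eif4g2 (107 and 105 reads, 44.3%) and Eif3b (83 and 84, 58.1%) were also below the member median. Pabpc6 (73 and 73, 77.4%) and Eef1d (56 and 62, 64.4%) were higher than these, but they too lay below the member median of 78.2%. Pabpc1 and Eef2 carried much of the pooled share. The ribosomal protein genes had a pooled first-U share of 80.2%, and the translation factors a median of 9.39% of reads at 1 start. No test between the lists was run.

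Chaperones gave 9 members of 20, with 68.4% first U over 3641 reads, among them Hsp90b1 (548 and 495 reads), the testis chaperone Hspa2 (514 and 491), Hspa5 (176 and 207) and Tcp1 (160 and 176). Tubulins and actins gave 2 of 17, Tuba3b with 843 and 811 reads and Tuba3a with 56 and 76. Reads that match both of these related genes have more than 1 place and were not counted. Histone and chromatin genes gave 9 of 18 with 80.2% first U, including the chromatin remodeller Smarca4 (452 and 489 reads), the testis linker histone Hist1h1t (331 and 305) and the testis histone Hist1h2aa (202 and 217).

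These counts are to be read beside the 7.28% of all genes that are members. The meiosis (28.6%) and piRNA pathway lists lay well above that share, and the other germ cell lists lay nearer to it. A high share was not particular to germ cell lists. It was 22.4% for ribosomal proteins, 41.2% for translation factors, 45% for chaperones and 50% for histone and chromatin genes. The somatic marker lists gave no member, which lists as short as 12, 8 and 15 genes can also do at that share. The meiosis list gave 8 members of 28, led by the cohesin subunit Stag3 (380 and 401 reads), the recombination gene Brca2 (344 and 374), the synaptonemal complex gene Sycp1 (341 and 343) and Tex15 (128 and 112). The piRNA pathway list, which also holds genes of the related AGO family, gave 13 of 24, more than any other list in share (54.2%). Ago2, a slicer of the AGO family, had 213 and 204 reads. The Tudor protein gene Tdrd1 had 170 and 143, the PIWI gene Piwil2 146 and 154, and the helicase gene Mov10l1 157 and 142. Spermatid genes gave 2 of 20, Ldhc (385 and 415) and Spag6l (77 and 73), and 8 of that list had no read. Spermatogonial genes gave Dazl (131 and 132) and Sall4 (66 and 61), 2 of 15, shares of 10% and 13.3%. No Sertoli (0 of 12), Leydig (0 of 8) or peritubular, vessel and blood marker (0 of 15) reached the minimum, and the highest were Clu with 11 and 48 reads, Star with 33 in all and Myh11 with 8 and 26. These are small RNA reads of the genes and not mRNA levels.

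The few reads of somatic markers began with U less often. Counting every listed gene, member or not, the 4 germ cell lists had 8917 reads with 73.6% first U (72.7 to 74.5), and the 3 somatic lists had 305 with 35.4% (30.04 to 41.1). Clu gave 59 of those 305 reads, and without it the share was 40.2% (34.1 to 46.7). By list it was 32.5% (Sertoli), 50% (Leydig, 36.6 to 63.4) and 31.1% (peritubular, vessel and blood), and single genes such as Cdh5 (77.8% of 18 reads), Amh (66.7% of 18) and Star (66.7% of 33) were higher. The Sertoli list had 46 KO-named and 111 het-named reads, and the peritubular, vessel and blood list 25 and 65, a ratio by RPM of 0.478 (0.332 to 0.680) and 0.444 (0.268 to 0.714). Single genes weighed on both ratios: Clu had 11 and 48 reads, Acta2 6 and 20 and Myh11 8 and 26. The ratios without them were not computed. The Leydig list had 30 and 28 reads. Of the 35 somatic genes 7 had no read. The germ cell lists had 4441 and 4476 reads, a ratio of 1.15 (1.10 to 1.19). With 1 bulk testis library per table, fewer cells of a type, less RNA per cell and library differences cannot be told apart. None of these was tested.

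Between the tables, the members' levels were close. The median log2 ratio of KO-named over het-named RPM, with 0.5 reads added to each count, was 0.19, and 90% of members lay between -0.26 and 0.58. It was 0.23 over 4795 annotated genes with at least 100 reads, 0.28 over 3' UTRs and 0.19 over lncRNA exons. Only 1 member was past a log2 of 1, 0.0624% of coding sequences against 0.188% of all annotated genes, and none was past -1 (0.0% against 0.209%). Past 1 and past -1 lay 0.211% and 0.0527% of 3' UTRs, and 0.0% and 1.29% of lncRNA exons. That member was Actr6, a subunit of a chromatin remodelling complex, with 70 and 40 reads and a log2 ratio of 1.01. Its ratio was 2.02, with a wide interval of 1.35 to 3.06. Nemp1 had a ratio of 1.24 (1.22 to 1.27), Zbtb3 1.07 (1.02 to 1.11) and Wdfy3 0.945 (0.878 to 1.02). The intervals of 1428 members held the median ratio of 1.14.

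**Figure D5:**
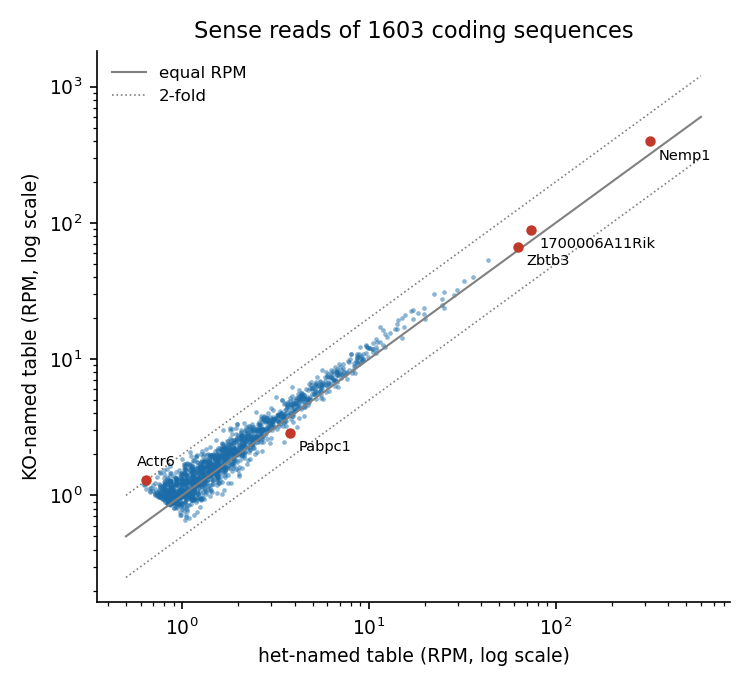
RPM of each member in the het-named (x axis) and the KO-named table (y axis), both on log scales, with lines of equality and of 2-fold difference. Points are coding sequences, Nemp1 is the highest at 321 and 398 RPM, and Actr6 is the only point past 2-fold.

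Classes of read differed in their ratio. First-U reads of the members had a ratio of 1.18 (1.17 to 1.18) and other reads 1.07 (1.06 to 1.09). Reads of 26 to 28 nt had 1.18 and those of 29 to 31 nt 1.15. Reads of 18 to 23 nt in the same coding sequences went the other way, with 16604 and 25884 reads and a ratio of 0.740 (0.726 to 0.755), which was 0.883 for first-U and 0.611 for other short reads. The first-U share of a member was higher in the KO-named table in 982 members and higher in the het-named table in 619, with a median difference of 1.47 points. The direction was the same over all 24 to 32 nt reads of the tables, where the first-U share was 78.8% (KO-named) and 73.6% (het-named). The part of the short reads in the members' ratios was not tested.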

How the data were processed

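Small RNA of 15 to 40 nt from 23 dpp testes was made into TruSeq libraries, per the labels' protocols. The deposited tables give raw counts of reads for each distinct sequence of 18 to 32 nt. For trimming and filtering, no tool is given in the sources used. Sequences were matched with 0 mismatches to GENCODE M21 transcripts with bwa 0.7.19 and projected to GRCm38, leaving out 102 sequences (1052 reads) with over 2000 matches. No genome sequence was used here, so 1 place means 1 start and strand among annotated transcripts, and copies in introns or unannotated DNA were not seen. RPM uses all reads of a table, and 3 reads, the limit a count of 0 allows, equal 0.0552 (KO-named) and 0.0478 RPM (het-named). Bases, positions and codons were read on 1 complete transcript per gene, which held 98.1% of member reads. Calculations used Python 3.11.15 with scipy 1.17.1, pandas 2.3.3 and numpy 2.4.6, figures matplotlib 3.10.9, and the placement was tested on simulated data.

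Members and gene lists were chosen with earlier results of these data known. The text names the 20 members with most reads, extremes of first-U share and evenness among those with at least 300 reads, ratios at or past 1 in log2 size, up to 4 members per list by reads, and genes beside the minimum. Genes named for length, 3' UTR, base 10, antisense reads or overlap, and those with first-U shares below 30%, were chosen after their values were seen. So were Clu, Star, Myh11, Acta2, Cdh5, Amh, Pabpc6, Eef1d and Aym1. Alternatives changed the minimum, the length range, reads to distinct sequences, the placement rules, the most frequent start, overlapping genes and the scaling. A few genes that this rule would name are not reported here.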

Additional observations from a re-analysis of the deposited data

Results flagged for a closer look

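In 5 members the CDS held more antisense than sense reads of 24 to 32 nt, data outside the sense reads that define the members. Stox1 had 55073 antisense against 940 sense reads, Tbc1d1 3318 against 370, Ccnq 1104 against 681, Topaz1 212 against 126 and Ubxn6 157 against 135. First U was found in 88.5%, 91.0%, 95.8%, 85.4% and 87.3% of these antisense reads. Their source transcripts were not analysed here.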

How the results depend on the processing

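Counting distinct sequences in place of reads left 924 coding sequences: the median first-U share went from 78.2% to 68.2%, the share at the most frequent start from 13.1% to 3.40%, the 29 to 31 nt share from 26.7% to 28.5% and the log2 ratio from 0.19 to 0.0616. A minimum of 200 reads left 737 members with 81.1%, 13.4%, 27.5% and 0.20. Reads of 26 to 32 nt gave 79.6%, 14%, 31.4% and 0.20. Dropping each most frequent start gave 75.2%, 8.38%, 27.01% and 0.18. With the whole read inside the CDS, first U was 78.5%, the most frequent start 13.0% and log2 0.18. With reads of several places by share, the medians were 77.8%, 13.3% and 26.5% for first U, start and length. Without overlapping genes 26.9% were 29 to 31 nt. Leaving out only UTRs of protein-coding transcripts, an alternative chosen after seeing the data, gave 1936 members with 77.7%, 12.5% and 27.1%. Scaling to 24 to 32 nt reads gave a log2 of 0.11, with 1090 members above 0 and 513 below against 1269 and 334. By that scaling 0 members were at or past 1 in log2 size, so Actr6 no longer was. Scaling to the median member gave 0 by construction. Across these alternatives the median first-U share ran from 68.2% to 81.1% and that of 29 to 31 nt from 26.5% to 31.4%. No paired analysis was possible because each table is 1 library. Depth limits members near 100 reads most, where the intervals of shares are widest.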
